A study of Mus musculus with 2 samples.

Results

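Erbb4, Kit, Slc15a2 and Hpgd were 4 of the 25778 genes in the deposited count table, and they were chosen by their summed level in amacrine cells (AC), which was higher in Ptbp1-KO than in Ptbp1-Ctrl. The study profiled dissociated whole retina of 30-day-old mice by droplet single-cell RNA sequencing and asked what deletion of Ptbp1 from progenitors does to the mature retina. Ptbp1-Ctrl carried the Chx10-Cre transgene alone, and Ptbp1-KO carried Chx10-Cre with both Ptbp1 alleles floxed around the promoter and the first exon, so Cre was present in both groups. Chx10-Cre acts in retinal progenitors so its effect reaches the cell types that descend from them. Each genotype was 1 library from 1 mouse, so no test between genotypes is given, and differences between animals, dissociations and libraries cannot be told apart from genotype. The question asked of the 4 genes was whether their AC difference reflects a different mix of AC classes or a different level within a class.

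The 4 genes encode proteins with unrelated roles. Erbb4 encodes a receptor tyrosine kinase for neuregulins, and Kit encodes the receptor tyrosine kinase for stem cell factor. Slc15a2 encodes PEPT2, a proton-coupled transporter of di- and tripeptides that is known from glia and epithelia. Hpgd encodes 15-hydroxyprostaglandin dehydrogenase, the enzyme that starts the breakdown of prostaglandins. AC are inhibitory interneurons of the inner retina, made up of many classes that release GABA, glycine or peptides, and genes restricted to a few of these classes change in a summed AC level whenever the classes are sampled in other proportions.

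In the GRCm38 genome, GENCODE M21 places Erbb4 at chr1:68032186-69108059 on the minus strand, Kit at chr5:75574916-75656722 on the plus strand, Slc15a2 at chr16:36750177-36784962 on the minus strand and Hpgd at chr8:56294585-56321043 on the plus strand. Slc15a2 contains an annotated pseudogene on the opposite strand, and Erbb4 and Hpgd contain further annotated transcripts on their own strand, so that some reads within these genes could have been counted elsewhere. The stretches just upstream of the 4 genes are shown because the genes differed in the same direction in AC. They come from RefSeq (GRCm38.p6), end at the last base before the outermost annotated start, and read 5′ to 3′ along the strand of the gene. Capitals mark an E-box (CAGCTG) or a GC box (GGGCGG, or CCGCCC on the other strand).
Erbb4, chr1:69108060-69108309, minus strand: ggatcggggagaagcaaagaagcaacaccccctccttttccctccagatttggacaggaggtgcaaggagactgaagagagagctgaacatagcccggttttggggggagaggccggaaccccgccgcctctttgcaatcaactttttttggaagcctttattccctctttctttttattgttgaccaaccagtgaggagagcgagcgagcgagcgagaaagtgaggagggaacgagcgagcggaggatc
Kit, chr5:75574737-75574915, plus strand: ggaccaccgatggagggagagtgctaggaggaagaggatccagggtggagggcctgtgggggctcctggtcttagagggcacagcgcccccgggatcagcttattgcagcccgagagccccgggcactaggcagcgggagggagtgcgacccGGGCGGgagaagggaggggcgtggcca
Slc15a2, chr16:36784963-36785212, minus strand: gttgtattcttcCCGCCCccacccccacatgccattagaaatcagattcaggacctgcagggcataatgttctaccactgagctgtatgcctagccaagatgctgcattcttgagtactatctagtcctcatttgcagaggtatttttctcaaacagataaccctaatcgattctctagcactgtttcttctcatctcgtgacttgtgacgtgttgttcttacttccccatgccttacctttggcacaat
Hpgd, chr8:56294302-56294551, plus strand: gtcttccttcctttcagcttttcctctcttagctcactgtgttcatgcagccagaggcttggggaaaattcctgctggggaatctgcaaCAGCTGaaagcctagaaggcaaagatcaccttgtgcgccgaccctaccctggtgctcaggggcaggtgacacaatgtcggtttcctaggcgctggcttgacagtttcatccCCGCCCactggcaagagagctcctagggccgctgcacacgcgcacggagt
A GC box was found in the stretches of Kit, Slc15a2 and Hpgd and an E-box in that of Hpgd, and the Erbb4 stretch held neither. Neither a TATAAA nor a CCAAT was found in any of the 4, on either strand. Over all 32851 RefSeq promoters, 32.7% held a GC box, 13.0% an E-box, 12.4% a TATAAA and 33.8% a CCAAT in the same 250 bases, and 20.9% held a GC box in the 179 bases that correspond to the Kit stretch. The Slc15a2 stretch had the lowest GC content of the 4, 45.2%, against a median of 52.4% over all promoters. No letters searched here were shared by all 4 genes.

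The Ptbp1-Ctrl library held 16421 cells and the Ptbp1-KO library 14522, with 32758836 and 35328593 unique molecular identifiers (UMIs). AC numbered 676 and 945, with 1956373 and 3857457 UMIs and a median depth of 2600.5 and 3928 UMIs per cell. The targeted gene had 825 UMIs in Ptbp1-Ctrl against 14 in Ptbp1-KO, with 41 and 2 of them in AC. The study's methods name a female mouse per genotype, whereas both libraries held 5 and 6 Xist UMIs and 6164 and 7085 UMIs of the Y-linked gene Uty, so both went against that description in the same way. The libraries shared 63 cell barcodes. All 5 AC markers (Pax6, Tfap2a, Tfap2b, Tfap2c and Slc32a1) were detected in AC, with a summed level of 1232 CPM in Ptbp1-Ctrl against 1473 CPM in Ptbp1-KO. CPM gives how many of every 1000000 UMIs summed over a set of cells belonged to the gene.

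All 4 genes were higher in AC of Ptbp1-KO, by 1.98 to 3.19 times, and these values chose the genes. Slc15a2 had 51 UMIs in AC of Ptbp1-Ctrl (26.1 CPM, 95% Poisson interval 19.4 to 34.3) and 321 in Ptbp1-KO (83.2 CPM, 74.4 to 92.8), which gave a log2 KO/Ctrl ratio of 1.67 (1.24 to 2.13). Erbb4 had 79 UMIs (40.4 CPM, 32.0 to 50.3) and 357 UMIs (92.5 CPM, 83.2 to 103), which gave a log2 KO/Ctrl ratio of 1.20 (0.84 to 1.57). The Hpgd level was 50.1 CPM (98 UMIs, 40.7 to 61.0) against 103 CPM (399 UMIs, 93.5 to 114), which gave a log2 KO/Ctrl ratio of 1.05 (0.72 to 1.38). For Kit it was 35.8 CPM (70 UMIs, 27.9 to 45.2) against 70.8 CPM (273 UMIs, 62.6 to 79.7), which gave a log2 KO/Ctrl ratio of 0.98 (0.60 to 1.38). In AC, 33 of 4522 genes with a mean of at least 50 CPM were at least 1.5 times higher in Ptbp1-KO, which is 0.73%, and the 4 genes were the 4 highest of them. The next genes below Kit were Wdr6 and Kcnab2, both at a log2 ratio of 0.84, and they are named here only to show where the choice ended. Since the choice used this contrast, these ratios are only a description, and so are the comparisons and splits that use them below. All intervals here cover counting error only, and they treat UMIs of a single cell as independent.

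Outside AC, the 4 genes were found in different cells. Hpgd was at most 0.787 CPM in bipolar cells (BC), Müller glia (MG), rods and cones of either library. In retinal ganglion cells (RGC), which share a deposited cluster with AC, Hpgd was 42.2 CPM (9 UMIs, 19.3 to 80.2) in Ptbp1-Ctrl, near its AC level there, against 10.9 CPM (2 UMIs, 1.32 to 39.3) in Ptbp1-KO, and the counting interval of that ratio included 0. Kit was found in AC and, at a lower level, in MG, where 116 UMIs (19.6 CPM, 16.2 to 23.6) in Ptbp1-Ctrl stood against 190 UMIs (37.4 CPM, 32.2 to 43.1) in Ptbp1-KO. The log2 ratio of Kit in MG was 0.93 (0.59 to 1.27), close to its ratio in AC. A Kit UMI was seen in 104 of 1720 MG (6.05%) and 158 of 1184 MG (13.3%), and in 1.68% (1.12 to 2.42) and 3.84% (2.81 to 5.10) of MG thinned to 1000 UMIs. BC, rods and cones had at most 0.759 CPM of Kit.

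Erbb4 was highest in BC, with 240 CPM (231 to 250) in Ptbp1-Ctrl against 249 CPM (240 to 259) in Ptbp1-KO, and the counting interval of the log2 ratio included 0 (0.05, −0.03 to 0.13). Most of this came from deposited BC cluster 9, at 1196 and 1261 CPM, where 99 of 390 and 70 of 295 cells held an Erbb4 UMI and 1 cell held up to 99 and 128 of them. Among the 5 types with over 1000000 UMIs in each library, the Erbb4 order was BC, AC, MG, rods and cones in both, although the counting intervals of rods and cones overlapped in both libraries and those of MG and rods in Ptbp1-KO. In rods, Erbb4 was 5.52 CPM (4.32 to 6.95) in Ptbp1-Ctrl against 10.0 CPM (8.44 to 11.8) in Ptbp1-KO, and in MG it was 13.9 CPM (11.0 to 17.2) and 11.0 CPM (8.32 to 14.3).

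Slc15a2 was highest in MG, with 213 CPM (201 to 225) in Ptbp1-Ctrl against 274 CPM (260 to 288) in Ptbp1-KO, which gave a log2 KO/Ctrl ratio of 0.36 (0.25 to 0.47). The neuronal types had much less of it, and there the ratio was larger. In BC the level was 10.0 CPM (8.13 to 12.2) against 43.1 CPM (39.1 to 47.3), which gave a log2 KO/Ctrl ratio of 2.11 (1.79 to 2.44). Rods had 6.90 CPM (5.55 to 8.48) against 34.3 CPM (31.3 to 37.4), which gave a log2 KO/Ctrl ratio of 2.31 (1.99 to 2.65). Cones had 10.3 CPM (6.11 to 16.3) against 30.9 CPM (22.4 to 41.4), which gave a log2 KO/Ctrl ratio of 1.58 (0.76 to 2.46). The ratio intervals of BC, rods and cones lay above that of MG, as did that of AC, which chose the gene. In CPM, among these types, the difference was largest in MG (60.7), then AC (57.1), BC (33.1), rods (27.4) and cones (20.6). Among these 4 neuronal types, AC had the highest Slc15a2 level in both libraries, and the intervals of BC and rods overlapped with that of cones in Ptbp1-Ctrl. RGC held 8 and 6 UMIs of Erbb4, 1 and 3 of Kit and 1 and 2 of Slc15a2, and no difference was detectable at this depth. Horizontal cells, 17 and 7 in number, held 3 and 4 UMIs of Slc15a2 and 0 of the other 3 genes, for which the exact Poisson intervals reach up to 33.3 and 86.1 CPM.

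**Figure D1:**
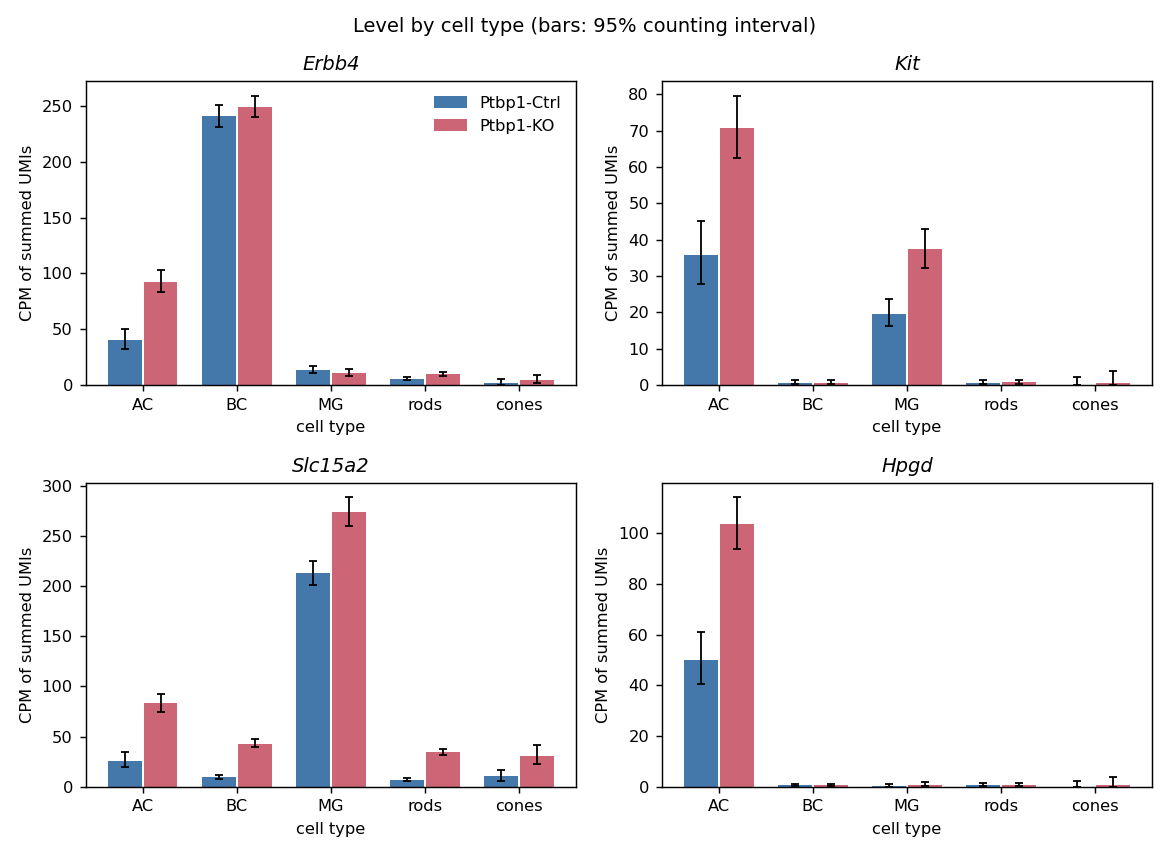
Level of each gene in CPM of summed UMIs (y axis) by cell type (x axis) in the Ptbp1-Ctrl and Ptbp1-KO library, 1 library each, with 95% Poisson intervals for counting error as error bars. Among the 5 types shown, Hpgd stood out in AC alone, Kit in AC and MG, Erbb4 in BC before AC, and Slc15a2 in MG, with a higher bar for Ptbp1-KO in all 5 types shown for Slc15a2.

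Because droplets also capture free RNA, Slc15a2 was set beside the UMIs of 7 MG markers (Rlbp1, Glul, Slc1a3, Apoe, Sox9, Aqp4 and Kcnj10). In MG there were 9.29 Slc15a2 UMIs per 1000 MG marker UMIs in Ptbp1-Ctrl against 11.5 in Ptbp1-KO. In AC there were 40.3 and 186, in BC 46.5 and 202, in rods 34.1 and 180, and in cones 47.1 and 138. AC, BC, rods and cones held more Slc15a2 per MG marker UMI than MG in both libraries. The MG markers themselves summed to 648 CPM in AC of Ptbp1-Ctrl against 446 CPM in AC of Ptbp1-KO, with none of the 7 at 0. In AC cluster 15, a deposited cluster described further on, they summed to 159 against 169 CPM, with Kcnj10 at 0 in Ptbp1-Ctrl. They were 215 and 213 CPM in BC, 202 and 190 CPM in rods, and 219 and 223 CPM in cones, where Kcnj10 was at 0 in Ptbp1-KO. The part of free RNA in the Slc15a2 level of BC, rods and cones was not otherwise tested.

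The same AC counts of Slc15a2, which chose the gene, can also be given as the share of AC with a UMI. Slc15a2 was seen in 37 of 676 AC of Ptbp1-Ctrl (5.47%, exact Clopper-Pearson interval 3.88 to 7.47) and in 239 of 945 AC of Ptbp1-KO (25.3%, 22.5 to 28.2). With each cell thinned to 1000 UMIs, and 51 and 53 shallower AC left out, the shares were 2.40% (1.35 to 3.93) and 9.30% (7.48 to 11.4). Thinned rods, at a median depth of 1088 and 1288 UMIs before thinning, had 0.593% (0.413 to 0.824) and 3.24% (2.81 to 3.71), with 4155 and 3126 shallower rods left out. No cell held many copies, the highest count in an AC being 3 in Ptbp1-Ctrl against 4 in Ptbp1-KO. For the other 3 genes the share of AC with a UMI differed less. Thinned, it was 1.92% (0.996 to 3.33) and 3.81% (2.65 to 5.29) for Erbb4, 1.92% (0.996 to 3.33) and 2.69% (1.73 to 3.98) for Kit, and 3.52% (2.22 to 5.28) and 4.93% (3.61 to 6.57) for Hpgd, with overlapping intervals in each case. Unthinned, these shares were 3.25% and 7.83%, 2.96% and 4.87%, and 7.40% and 10.2%. Rods, which should lack Kit and Hpgd, had a thinned share of at most 0.0847% for these genes.

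The deposited AC fell into 3 clusters, numbered 6, 14 and 15. Clusters 14 and 15 held the glycinergic markers Slc6a9 and Slc6a5 at 997 to 1306 CPM, and cluster 15 had the most of the AII markers Gjd2, Dab1, Car2, Nfia and Prox1. Of AC, 43.3% (39.6 to 47.2) lay in cluster 6 in Ptbp1-Ctrl and 50.6% (47.3 to 53.8) in Ptbp1-KO, 33.0% (29.5 to 36.7) and 22.6% (20.01 to 25.4) in cluster 14, and 23.7% (20.5 to 27.1) and 26.8% (24.0 to 29.7) in cluster 15. Cluster 6 also held the RGC and horizontal cells. The mix of AC by cluster was therefore not the same in the 2 libraries, with cluster 14 smaller and cluster 6 larger in Ptbp1-KO beyond counting error. Markers of AC classes, summed within cluster 6, are given for Ptbp1-Ctrl first. The 3 markers of AC with neither GABA nor glycine were at 46.9 and 97.8 CPM, and 9 peptide markers at 1819 and 2396 CPM. Markers of AII (988 and 950 CPM), VG3 (73.9 and 63.5 CPM) and catecholaminergic AC (27.0 and 24.4 CPM) went the other way. These sums have no counting interval. Beyond the split over sub-clusters below, their part in the Kit and Hpgd differences was not tested.

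Kit and Hpgd were confined to cluster 6 up to a few UMIs. Hpgd was 113 CPM (91.3 to 138) there in Ptbp1-Ctrl against 207 CPM (187 to 228) in Ptbp1-KO, with at most 2 UMIs in either other cluster. Kit was 78.6 CPM (60.9 to 99.9) and 140 CPM (124 to 158) in cluster 6, with at most 3 UMIs in either other cluster. The log2 ratios within cluster 6 were 0.88 (0.55 to 1.21) for Hpgd and 0.84 (0.45 to 1.25) for Kit. Cluster 6 held 98.0% and 99.7% of the AC UMIs of Hpgd and 95.7% and 98.9% of those of Kit. These ratios therefore use nearly the same counts that chose the genes. Erbb4 was 71.6 CPM (54.8 to 92.0) and 165 CPM (147 to 184) in cluster 6, which gave a log2 KO/Ctrl ratio of 1.20 (0.80 to 1.62), whereas in cluster 15 it was 39.2 CPM (22.8 to 62.7) and 34.1 CPM (23.5 to 47.9). Within cluster 6, 1.9% of 4520 genes were at least 1.5 times higher in Ptbp1-KO.

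Slc15a2 differed in every AC cluster, and most in cluster 15. It was 11.5 CPM (5 UMIs, 3.74 to 26.9) there in Ptbp1-Ctrl against 109 CPM (105 UMIs, 88.8 to 131) in Ptbp1-KO, which gave a log2 KO/Ctrl ratio of 3.24 (1.97 to 4.89). In cluster 14 it was 29.8 CPM (18.2 to 46.1) and 99.2 CPM (80.4 to 121), which gave a log2 KO/Ctrl ratio of 1.73 (1.03 to 2.51), and in cluster 6 it was 30.5 CPM (19.9 to 44.7) and 62.4 CPM (51.8 to 74.6), which gave a log2 KO/Ctrl ratio of 1.03 (0.41 to 1.70). In Ptbp1-Ctrl the intervals of the 3 clusters overlapped, while in Ptbp1-KO cluster 6 lay below the other 2. At least 1.5 times higher in Ptbp1-KO were 2.62% of 4390 genes in cluster 14 and 3.05% of 4267 genes in cluster 15.

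**Figure D2:**
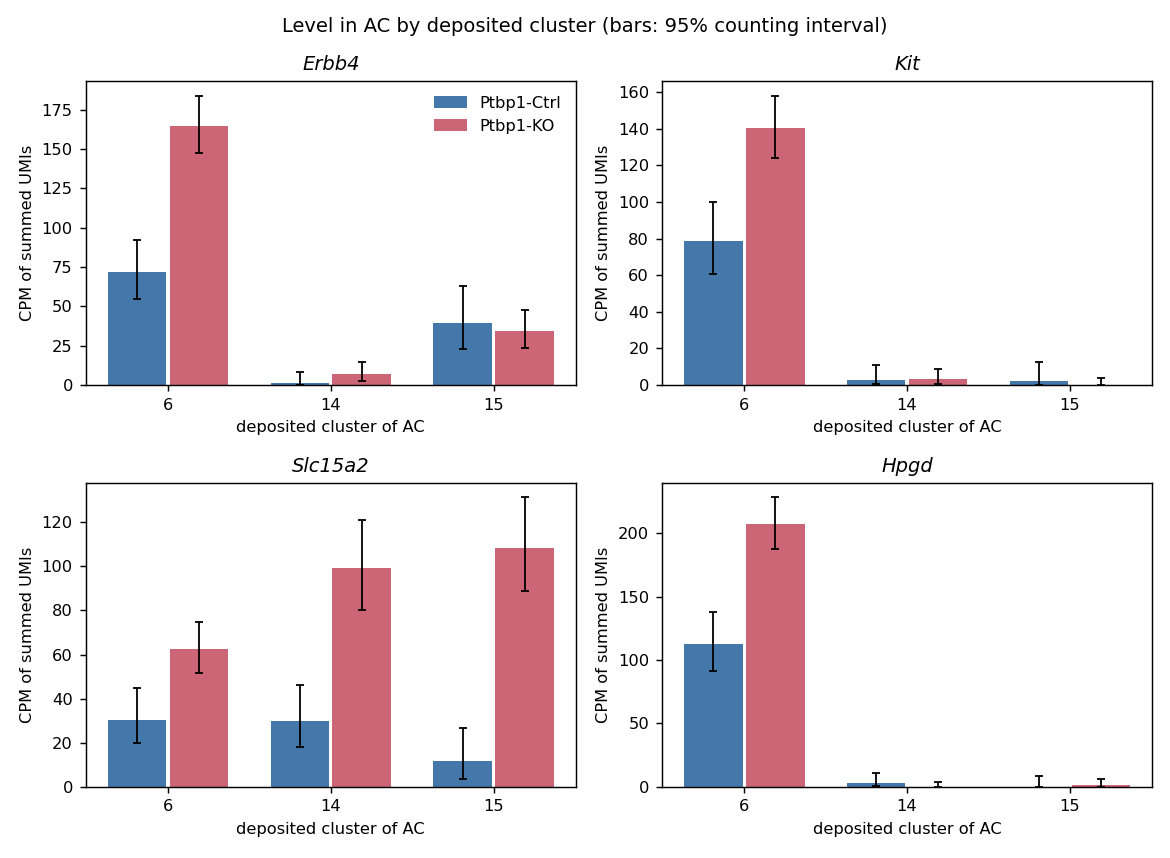
Level of each gene in CPM of summed UMIs (y axis) in the 3 deposited clusters of AC (x axis) for Ptbp1-Ctrl and Ptbp1-KO, 1 library each, with 95% Poisson intervals for counting error as error bars. Kit and Hpgd appeared in cluster 6 alone, Erbb4 in clusters 6 and 15, and Slc15a2 in all 3, with the widest gap between libraries in cluster 15 (11.5 against 109 CPM).

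The 10 deposited BC clusters gave the same picture for Slc15a2. Its level was higher in Ptbp1-KO in 10 of 10, with a counting interval above 0 in each, and the log2 ratios ran from 1.31 in cluster 13 to 4.52 in cluster 10. Erbb4 was higher in 7 and lower in 3 of these clusters, with the interval above 0 in 4 and below 0 in 1. Over the AC sub-clusters described next, Slc15a2 was higher in Ptbp1-KO in 20 of 22 and lower in 2, with a counting interval above 0 in 4 of them and below 0 in 0.

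**Figure D3:**
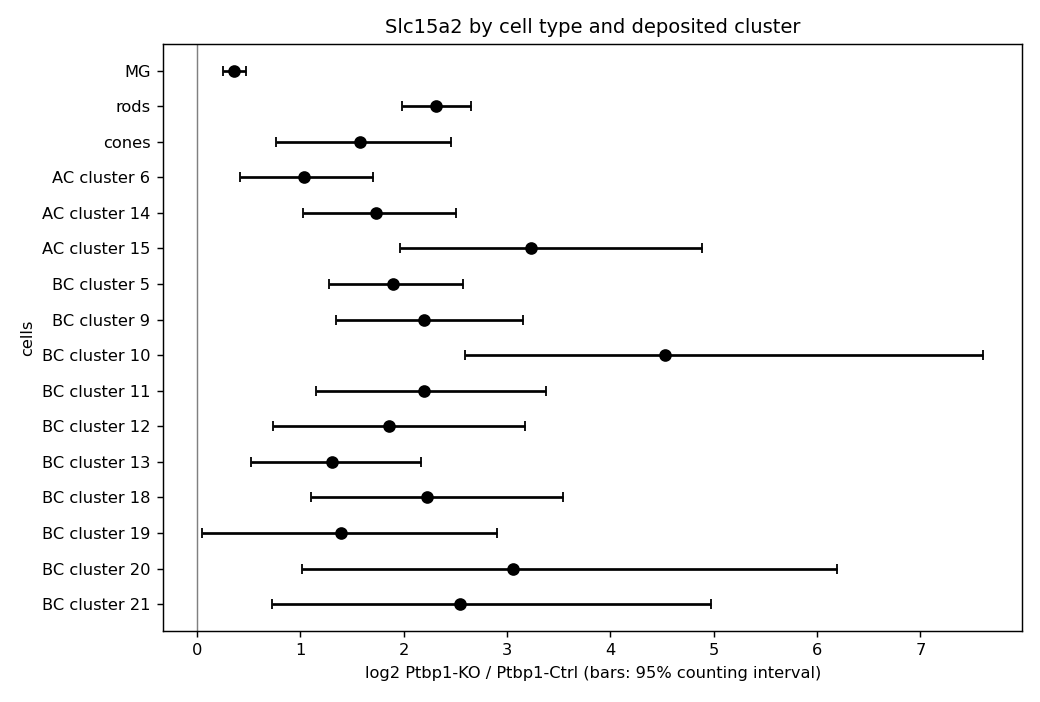
Log2 ratio of Slc15a2 in Ptbp1-KO over Ptbp1-Ctrl (x axis) in each deposited cluster of AC and BC and in MG, rods and cones (y axis), with 95% exact conditional binomial intervals for counting error as error bars. Every interval lay above 0, with MG lowest at 0.36 and BC cluster 10 highest at 4.52.

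To set the mix of AC apart from the level within a class, each AC difference was split over clusters into the part from different shares and the part from different levels. At equal shares of the 3 deposited clusters, the log2 ratio was 1.02 (0.66 to 1.37) for Erbb4, 0.80 (0.42 to 1.18) for Kit, 1.71 (1.28 to 2.13) for Slc15a2 and 0.86 (0.54 to 1.18) for Hpgd. The part within clusters made up 84.5% of the CPM difference for Erbb4, 81.0% for Kit, 102% for Slc15a2 and 81.4% for Hpgd. The different shares of the 3 clusters, summed, covered 15.5% to 19.0% of the difference in Erbb4, Kit and Hpgd and −2.22% of it in Slc15a2.

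Each deposited cluster can hold several AC classes, so AC were divided further into 22 Leiden sub-clusters, made without the 4 genes. At equal shares of these, the log2 ratio was 0.68 (0.30 to 1.06) for Kit and 0.68 (0.36 to 0.9996) for Hpgd, with 31.6% and 34.0% of the CPM difference from different shares. Slc15a2 stayed at 1.66 (1.22 to 2.09) and Erbb4 at 1.16 (0.80 to 1.52), with 1.75% and 0.217% from different shares. The share that differed most was that of sub-cluster 4, with 13.2% (10.7 to 15.9) of AC in Ptbp1-Ctrl and 4.44% (3.22 to 5.96) in Ptbp1-KO. Sub-cluster 9 had 3.25% (2.05 to 4.89) and 5.82% (4.41 to 7.51). In 7 of the 22 sub-clusters, a marker of another cell type stood among the 10 leading genes. They held 120 AC of Ptbp1-Ctrl and 150 of Ptbp1-KO. Without them, the log2 ratio at equal shares was 0.64 (0.26 to 1.03) for Kit, 1.59 (1.09 to 2.08) for Slc15a2 and 0.54 (0.20 to 0.88) for Hpgd, but −0.11 (−0.54 to 0.32) for Erbb4. Among the AC kept, 1 cell of Ptbp1-Ctrl held 32 of the 79 Erbb4 UMIs in AC of that library. Sub-cluster 2, which remained, had no listed marker among its leading genes but held the 5 rod markers at a summed 25835 CPM and the AC markers at 285 CPM, with the photoreceptor genes Gucy2f and Impg1 among its leads. It held 74 AC of Ptbp1-Ctrl and 112 of Ptbp1-KO. With this sub-cluster left out as well, the ratios were 0.64 (0.26 to 1.02) for Kit, 1.78 (1.24 to 2.32) for Slc15a2, 0.59 (0.24 to 0.94) for Hpgd and −0.35 (−0.82 to 0.11) for Erbb4.

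**Figure D4:**
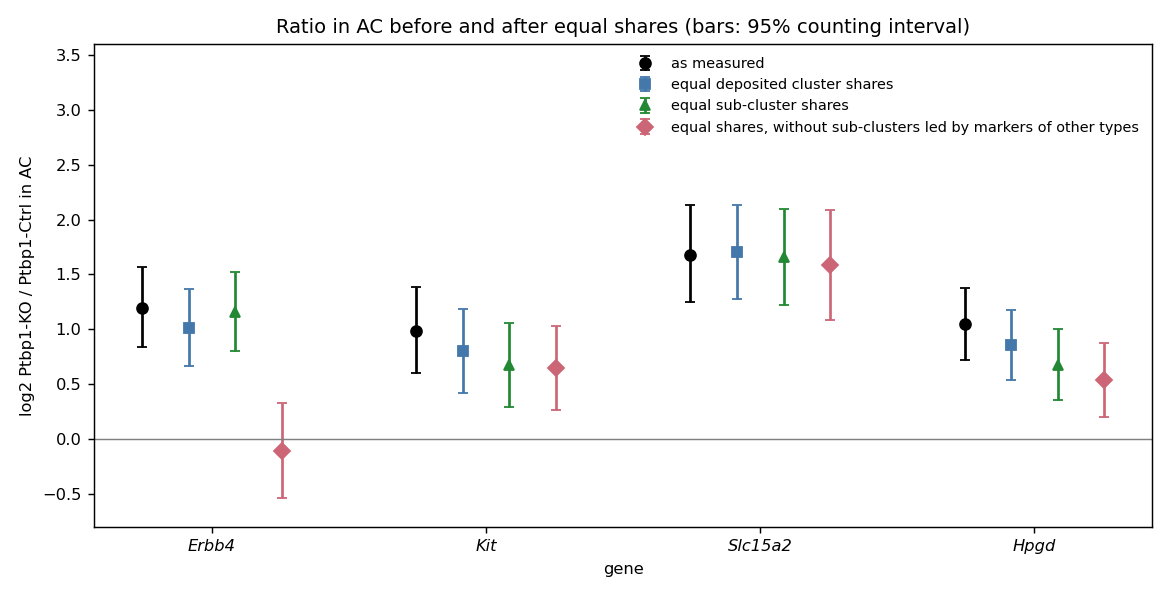
Log2 ratio in AC of Ptbp1-KO over Ptbp1-Ctrl (y axis) for each gene (x axis) as measured, at equal deposited cluster shares, at equal sub-cluster shares, and at equal sub-cluster shares without those led by markers of other cell types. Error bars are 95% intervals for counting error. Kit, Slc15a2 and Hpgd stayed above 0 in all 4, and Erbb4 went from 1.20 to −0.11. The AC kept for that last value include 1 Ptbp1-Ctrl cell with 32 Erbb4 UMIs.

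Erbb4 came from few cells. Sub-cluster 8, led by the BC genes Trpm1, Grm6 and Pcp2, held 1 Erbb4 UMI in 33 AC of Ptbp1-Ctrl and 191 UMIs in 12 of 48 AC of Ptbp1-KO, up to 69 in a single cell. This sub-cluster alone covered 49.0 CPM of the 52.2 CPM difference. Its cells were deep, with a median of 5374 and 7194 UMIs, and held the 7 BC markers at a summed 2680 CPM and the 5 AC markers at 969 CPM. Of its 81 cells, 46.9% were among the 5% of each library with the highest doublet score, against 10.3% of all AC. In Ptbp1-Ctrl, 32 of the 79 Erbb4 UMIs lay in 1 cell of sub-cluster 11, which is led by Slc17a8, the glutamate transporter gene of VG3 AC.

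Over single cells, 4 AC of Ptbp1-Ctrl and 17 AC of Ptbp1-KO held at least 5 Erbb4 UMIs, and 2 and 8 of these also held at least 10 UMIs of BC markers, against a median of 0 in all AC. Without any AC that held at least 10 UMIs of BC markers, 23 and 42 cells, Erbb4 was 19.4 CPM in Ptbp1-Ctrl against 42.2 CPM in Ptbp1-KO, which gave a log2 KO/Ctrl ratio of 1.12. This choice left out the single rich cell of Ptbp1-Ctrl, which the removal of whole sub-clusters had kept, and the 2 choices differ in the ratio for Erbb4. The part of BC transcripts in the Erbb4 level of AC was not otherwise tested. Elsewhere, Erbb4 was found in sub-cluster 6, led by Vip, Tac1 and Npy, with 4 UMIs in Ptbp1-Ctrl against 49 in Ptbp1-KO, and in sub-cluster 17, with 12 and 32 UMIs. In sub-cluster 17 the level was 389 and 299.8 CPM, and the interval of the log2 ratio included 0 (−0.37, −1.37 to 0.72). An Erbb4 UMI was seen there in 4 of 11 and 15 of 22 cells.

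Kit was the mark of a single sub-cluster. Sub-cluster 13, whose other leading genes included Cartpt, Syt10 and Slc35d3, held 64 of 70 Kit UMIs in Ptbp1-Ctrl against 258 of 273 in Ptbp1-KO. A Kit UMI was seen in 15 of its 17 AC in Ptbp1-Ctrl and in 32 of 32 in Ptbp1-KO. Within it, Kit was 866 CPM (667 to 1106) and 1420 CPM (1252 to 1605), which gave a log2 KO/Ctrl ratio of 0.71 (0.31 to 1.13). Its share of AC was 2.51% (1.47 to 3.996) in Ptbp1-Ctrl and 3.39% (2.33 to 4.75) in Ptbp1-KO, and these overlapped. Its cells had a median of 4225 UMIs in Ptbp1-Ctrl against 6086.5 in Ptbp1-KO.

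Hpgd came mainly from sub-cluster 14, with the leading genes Pou3f3, Cnih3 and Tafa1, and in Ptbp1-KO also from sub-cluster 11. Every cell of sub-cluster 14 held an Hpgd UMI, 16 in Ptbp1-Ctrl and 27 in Ptbp1-KO. Hpgd was 1128 CPM (845 to 1476) and 1548 CPM (1350 to 1767) there, which gave a log2 KO/Ctrl ratio of 0.46 (0.02 to 0.92), and the share of AC was 2.37% (1.36 to 3.82) and 2.86% (1.89 to 4.13). In sub-cluster 11 it was 180 CPM (10 UMIs, 86.3 to 331) and 754 CPM (88 UMIs, 604 to 928), which gave a log2 KO/Ctrl ratio of 2.07 (1.12 to 3.18), with a UMI in 7 of 23 and 21 of 30 cells. In sub-cluster 6, with 13 and 26 UMIs, it was not higher in Ptbp1-KO (128 and 103 CPM). In sub-cluster 8, led by BC genes, Hpgd had 5 and 31 UMIs, which gave a log2 KO/Ctrl ratio of 1.78 (0.41 to 3.50).

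**Figure D5:**
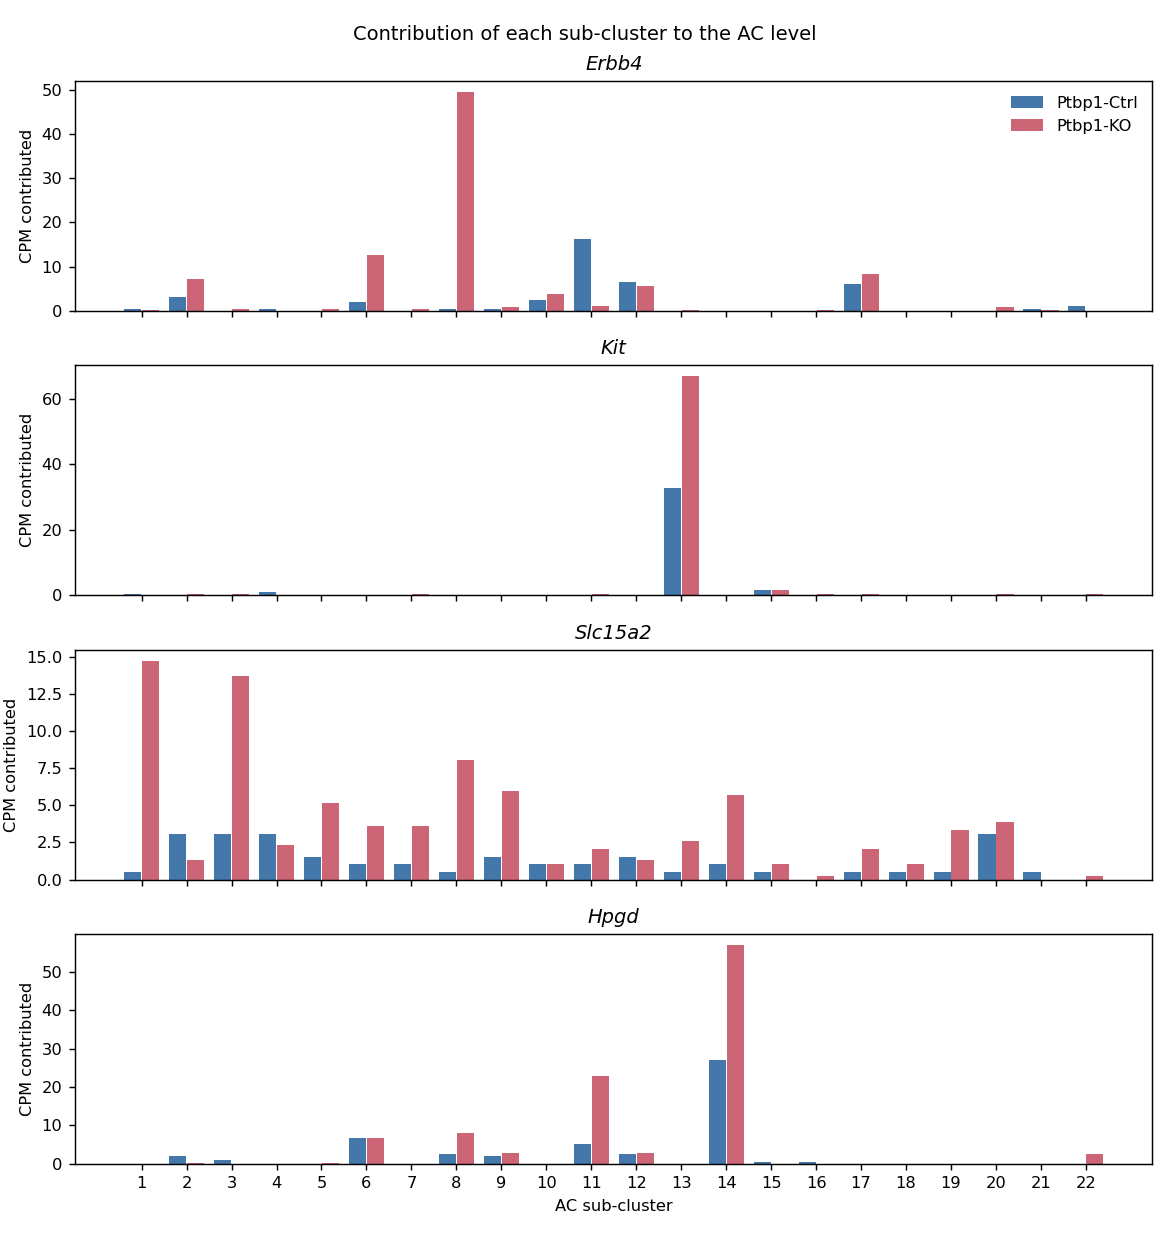
Contribution of each of 22 AC sub-clusters (x axis, numbered by size) to the AC level in CPM (y axis), for each gene and library, 1 library per genotype, with no error bars. Sub-cluster 8 held the tall Erbb4 bar of Ptbp1-KO (49.5 CPM), sub-cluster 13 held Kit (32.7 and 66.9 CPM), sub-cluster 14 held the tallest Hpgd bars (27.1 and 57.0 CPM), and Slc15a2 was spread over all but a few.

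The AC of Ptbp1-KO were deeper, and the genes behaved differently with depth. AC of at least 5000 UMIs were 11.1% of AC in Ptbp1-Ctrl and 34.2% in Ptbp1-KO. Slc15a2 was higher in Ptbp1-KO in each of 4 depth ranges, with 17.7 against 65.2 CPM from 700 to 1500 UMIs, 23.8 against 90.9 CPM from 1500 to 3000, 22.3 against 92.3 CPM from 3000 to 5000, and 37.3 against 78.2 CPM from 5000 to 10000. Hpgd was lower in Ptbp1-KO among the shallowest AC (59.1 against 6.52 CPM, from 10 and 1 UMIs), close from 1500 to 3000 UMIs (61.2 against 67.6 CPM) and higher above (40.5 against 102 CPM, then 47.7 against 119 CPM). Kit was also lower among the shallowest AC (23.6 against 6.52 CPM, from 4 and 1 UMIs) and higher in the deeper ranges. Erbb4 was higher in each range, with 22.3 against 30.4 CPM from 3000 to 5000 and 104 against 133 CPM from 5000 to 10000. Thinning, which gives each cell the same weight, lowered the Hpgd log2 ratio in AC to 0.58, at equal deposited cluster shares to 0.33 and at equal sub-cluster shares to 0.40. The part of depth in the Hpgd difference cannot be told apart from the makeup of the sampled AC.

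Few AC held UMIs of more than 1 of the 4 genes. Erbb4 and Kit were never seen in the same AC of Ptbp1-Ctrl and in 2 AC of Ptbp1-KO, and Kit and Hpgd in 1 and 3. Slc15a2 shared 12 AC of Ptbp1-KO with Kit, 21 with Erbb4 and 31 with Hpgd. The genes whose AC pattern was most like that of a member were sought over 44 points, the 22 sub-clusters in each library, which share depth and library with each other. For Hpgd these were Tafa1 (Pearson r 0.855), Maml2 and Olfm1, for Kit they were Kcnd2 (0.660), Nkain3 and Tenm1, and those near Erbb4 included Cdh18 (0.531) and Ntm. The nearest to Slc15a2 was Sgce, at an r of 0.588. Over AC, Tafa1 was 103 and 108 CPM, which gave a log2 KO/Ctrl ratio of 0.07 (−0.17 to 0.32), and Kcnd2 was 114 and 136 CPM, which gave a log2 KO/Ctrl ratio of 0.25 (0.02 to 0.48). Since the members were the 4 highest ratios of the same genes, the companions had to lie below them.

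Ligands, partners and enzymes that act with the 4 proteins were mostly within counting error in AC. Of 63 genes in 4 lists (ErbB signalling, Kit signalling, oligopeptide transport and prostaglandin metabolism), 39 had at least 20 UMIs. Of these, 2 had a counting interval above 0 and 1 below 0, against 6.89% above and 6.81% below among 12999 genes, and the median log2 ratio was 0.07. Among ErbB genes, 1 of 16 was higher over all AC: Nrg1, a neuregulin ligand, at 2282 and 2434 CPM (log2 0.09, 0.04 to 0.14). By deposited cluster, Nrg1 was 995 and 1030 CPM in cluster 6. It was lower in Ptbp1-KO in cluster 14 (249 and 196 CPM) and in cluster 15 (7946 and 7460 CPM). Nrg3 was 1250 and 1279 CPM, with an interval that included 0. Erbb2, a partner receptor of Erbb4, had 0 and 1 UMIs and Erbb3 had 1 and 1. Among Kit genes, 1 of 10 was lower, Stat5b, a transcription factor activated by cytokine receptors, at 60.8 and 46.7 CPM (log2 −0.38, −0.72 to −0.04). Kitl, the Kit ligand, had 5 and 19 UMIs, too few to resolve a difference (0.95, −0.52 to 2.72). Among oligopeptide transport genes, 1 of 4 was higher: Slc9a3r2, a scaffold protein of membrane transporters, at 15.3 and 24.4 CPM (log2 0.67, 0.06 to 1.31). Slc15a4, a relative of Slc15a2 and a lysosomal peptide transporter, was 12.8 and 12.4 CPM. None of 9 prostaglandin genes differed beyond counting error. Ptgds, a prostaglandin D synthase, was 90.5 and 84.8 CPM, and Ptges3, a prostaglandin E synthase, 213 and 212 CPM.

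Genes within 1 Mb of the 4 loci, with a mean of at least 10 CPM and 50 UMIs, were also examined. None of those measured in AC, 2 near Erbb4, 9 near Kit, 12 near Slc15a2 and 3 near Hpgd, was at least 1.5 times higher in Ptbp1-KO, and the same held in BC and rods. For scale, 1.60% of all genes with a mean of at least 20 CPM were this much higher in AC. The share at 10 CPM and the shares in BC and rods are not given. At least 1.5 times lower was 1 gene near Slc15a2, in AC. In AC, the genes near Slc15a2 had log2 ratios from −0.72 to −0.01, all below 0. Those measured in BC ran from −0.35 to 0.42 and those in rods from −0.16 to 0.40.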

How the data were processed

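The authors prepared 10x Genomics Chromium libraries (3′ kit), aligned reads to mm10 with Cell Ranger 7.0.1 and filtered cells in Seurat 4, per the labels and methods. The deposited table held raw UMI counts for 25778 genes in 30943 cells, and the authors' cell table gave the mitochondrial percent, cluster and cell type of each cell. The gene annotation, strand setting and use of intronic reads are not given in the sources used here. The samples were grouped by the genotype in their labels. A further 2 columns of per-cell values were not used.

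UMIs were summed per library and cell type and expressed as CPM, with exact Poisson, Clopper-Pearson and conditional binomial intervals at 95% (scipy 1.17.1). With 1 library per genotype no test was run and no p-value is given. Equal shares used the mean of both libraries' shares of UMIs as weights, with a Poisson variance interval. Sub-clusters came from scanpy 1.11.5 (2000 variable genes without the 4 members, 20 principal components, 15 neighbours, Leiden resolution 1). Cells called AC were used as deposited. Scrublet called 0 doublets in each library, so it did not work here, and only its score ranking was used, leaving out the top 5%. The interval and the split by shares were tested on simulated data.

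Named genes were the 4 members, the pathway lists, the cell type markers and the 3 genes most like each member by Pearson r of log2(CPM + 10) over sub-clusters. Some marker and companion genes are not reported here. The leading genes of sub-clusters, Wdr6, Kcnab2, Xist and Uty were chosen after their values were seen. The members and lists were chosen with earlier results of these data known. Alternatives were edgeR 4.0.16 scaling (TMM, RLE) of the summed counts, thinning to 1000 UMIs, equal weight of cells, free RNA subtraction from rod genes, doublet score, depth ranges, added RGC and horizontal cells, other weights, resolutions and gene filters. Leaving out sub-clusters led by markers of other types, sub-cluster 2 as well, or AC with at least 10 UMIs of BC markers, was chosen after seeing the data.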

Additional observations from a re-analysis of the deposited data

Results flagged for a closer look

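The log2 ratio of Erbb4 between Ptbp1-KO and Ptbp1-Ctrl went in opposite directions in different AC sub-clusters, beyond counting error on both sides. It was 1.32 in sub-cluster 2 (6 and 28 UMIs), whose cells held rod markers at 25835 CPM against AC markers at 285 CPM, 2.29 in sub-cluster 6 (4 and 49 UMIs) and 6.73 in sub-cluster 8 (1 and 191 UMIs), but −4.07 in sub-cluster 11 (32 and 4 UMIs). The difference between the sub-clusters was not tested, since each genotype was 1 library. All 32 UMIs of Ptbp1-Ctrl in sub-cluster 11 came from 1 cell, and up to 69 of those of Ptbp1-KO in sub-cluster 8 came from 1 cell. The counting intervals treat UMIs of 1 cell as independent, so the interval for sub-cluster 11 is too narrow. By cells with an Erbb4 UMI, sub-cluster 11 went the other way, with 1 of 23 in Ptbp1-Ctrl and 4 of 30 in Ptbp1-KO.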

How the results depend on the processing

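Of 99 alternative values, 84 kept their direction and stayed within the counting interval of the reported value, 12 left that interval and 3 changed sign. The cause was not tested for any of them, beyond what the construction of each alternative shows. Subtracting an estimated free RNA share of AC (33.6% in Ptbp1-Ctrl and 33.5% in Ptbp1-KO) gave log2 ratios of 2.19 for Erbb4 and 2.45 for Slc15a2 in AC, and 1.497 and 2.47 at equal deposited cluster shares. Hpgd in AC fell to 0.58 with cells thinned, 0.67 with cells weighted equally and 0.58 at equal shares of depth ranges, and to 0.33 at equal deposited cluster shares with cells thinned. At equal shares of depth ranges Erbb4 was 0.82. Without sub-clusters led by markers of other cell types Erbb4 was 0.075, and −0.11 at equal sub-cluster shares, and without sub-cluster 2 as well it was −0.12 and −0.35. All of these values kept the Ptbp1-Ctrl cell with 32 Erbb4 UMIs. The share of genes at least 1.5 times higher in AC was 1.60% at a mean of at least 20 CPM and 0.418% at a mean of at least 200 CPM. TMM scaling moved every AC ratio by 0.02. No paired analysis was possible because each genotype had 1 library, and for the same reason no library could be left out. Depth limits Kit outside AC and MG, Hpgd outside AC, and all 4 genes in RGC and horizontal cells, where no interval of a ratio left 0 out.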
